A study of Mus musculus with 6 samples.

Results

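The Rab GTPases are the largest branch of the Ras superfamily, and 57 of the 26835 genes in the tables of this series carry a Rab symbol. They were taken by symbol alone, as Rab followed by a number and an optional letter, which leaves out partner proteins such as Rab3il1. RNA had been sequenced from bone marrow-derived macrophages, primary cells grown from the marrow of 5- to 8-week-old wild-type BALB/C mice for 6 days with the growth factor M-CSF (25 ng/ml) and 10% serum. For a further 24 h they received PBS or 10 µg of vesicles shed by the mouse osteosarcoma line K7M2 (K7M2-EV), with 3 libraries per group. All 6 libraries share the culture and strain. The comparison asks what tumour vesicles do to gene expression in the macrophages that meet them, here for the genes that steer vesicle traffic inside those cells. The libraries are described as separate experiments, but the labels do not say whether the marrow came from separate animals.

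Rab proteins are switches on membranes. Exchange factors load them with GTP, the GTP form recruits effectors that move, tether or fuse a vesicle, and GTPase-activating proteins switch them off. A lipid anchor added by geranylgeranyl transferase holds them to the membrane, and GDI proteins lift the inactive form off again. In macrophages the passage of a phagosome from early to late stages is known for its exchange of Rab5 for Rab7, and secretion of cytokines and surface delivery of receptors rely on Golgi and exocytic Rabs.

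Shown first are the promoters of the called members with the 3 largest log2 rises and of Rab19, the largest fall with a promoter entry. Each is the stretch from 250 bases before the RefSeq start to 30 bases after it on GRCm38.p6. It is printed 5′ to 3′ on the strand of the gene, with capitals for matches to any of 3 motifs searched on both strands. Rab20 is at chr8:11478611-11478890 (minus strand), Rab10 at chr12:3309940-3310219 (minus strand), Rab4b at chr7:27178854-27179133 (minus strand) and Rab19 at chr6:39381103-39381382 (plus strand).
Rab20: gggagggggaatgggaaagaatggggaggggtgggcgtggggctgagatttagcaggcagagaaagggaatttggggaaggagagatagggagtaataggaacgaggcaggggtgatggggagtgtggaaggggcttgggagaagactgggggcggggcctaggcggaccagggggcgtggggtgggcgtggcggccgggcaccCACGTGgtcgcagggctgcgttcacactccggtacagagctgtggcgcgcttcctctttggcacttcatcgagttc
Rab10: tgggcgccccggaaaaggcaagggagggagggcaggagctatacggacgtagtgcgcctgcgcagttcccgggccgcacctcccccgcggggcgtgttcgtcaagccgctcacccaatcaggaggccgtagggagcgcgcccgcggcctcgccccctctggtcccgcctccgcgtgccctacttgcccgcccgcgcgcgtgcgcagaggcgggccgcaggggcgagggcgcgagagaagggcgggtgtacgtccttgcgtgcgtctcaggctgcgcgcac
Rab4b: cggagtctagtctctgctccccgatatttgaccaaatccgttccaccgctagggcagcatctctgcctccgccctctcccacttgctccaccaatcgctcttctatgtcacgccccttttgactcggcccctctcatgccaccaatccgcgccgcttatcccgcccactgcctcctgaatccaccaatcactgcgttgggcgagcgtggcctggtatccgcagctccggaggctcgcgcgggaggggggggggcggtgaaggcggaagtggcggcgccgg
Rab19: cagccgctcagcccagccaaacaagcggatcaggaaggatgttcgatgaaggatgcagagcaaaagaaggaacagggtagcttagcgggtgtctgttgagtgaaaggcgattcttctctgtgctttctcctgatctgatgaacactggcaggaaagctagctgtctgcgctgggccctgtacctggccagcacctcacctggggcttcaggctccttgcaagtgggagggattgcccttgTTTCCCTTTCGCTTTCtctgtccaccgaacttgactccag

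The motifs were the kappaB site, which binds NF-κB, the E-box CACGTG and an interferon-type repeat, GAAA followed by 2 bases of any kind and GAAA again. Over the RefSeq windows of 300 bases, from 250 before to 50 after each of 32851 starts, they matched 4.51%, 7.15% and 3.44%. Of the 34 tested Rab genes with a promoter in the table, 1 held a kappaB match (Rab28), 4 held CACGTG (Rab5a, Rab20, Rab21 and Rab24) and 1 held the repeat (Rab19). In Rab20 the CACGTG began 46 bases before the start. In Rab19 a pair of overlapping matches to the repeat on the opposite strand began 10 and 4 bases before it. No kappaB match stood in the windows of the 8 members that rose, which says only that these letters are not there. Rab7b, Rab4a, Rab2a and Rab18 had no entry.

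Expression is in FPKM, fragments scaled to transcript length and to the library's mapped total, so levels can be compared between genes. Of the 57 Rab genes, 38 reached 1 FPKM in at least 3 libraries and were tested with limma on log2(FPKM + 1) together with all other such genes. None of the 38 passed through only 1 group, and their lowest value in any library was 0.883 FPKM. With vesicles 8 members rose and 12 fell at a Benjamini-Hochberg adjusted p under 0.05, while 18 were not called. That is 52.6% of those tested, and over all 13009 genes tested the share was 54.0%. The share called higher was 21.1% against 18.4% of all genes, and the share called lower 31.6% against 35.6%. The family as a whole was thus called about as often as any gene in this comparison. The median log2 fold change was -0.06 for the members and -0.12 for all genes. After median-of-ratios scaling, which moved the median of all genes by 0.11, 14 members were higher and 8 lower. Over all genes tested, that scaling gave 26.5% higher and 26.0% lower. With quantile normalization the calls were 7 each way, against 24.1% higher and 25.2% lower over all genes. No called member changed direction in any of the 17 alternative fits. Those fits reuse the same libraries, and several leave the log2 fold changes as they were, so this is not independent support. In 26 of the 38 the groups did not overlap (68.4%, against 63.8% of all genes). In bulk RNA, fewer cells of a type and less RNA per cell cannot be told apart.

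The members at the ends of the scale belong to different compartments. Rab20 (3.34-fold) and Rab10 (2.38-fold) rose most in mean FPKM, and Rab19 (4.37-fold) and Rab7b (3.49-fold) fell most. No other tested member was called with a log2 change of 1 or more either way, as 11.5% of all genes tested were. Of the 20 called members, 8 kept their call in every alternative fit that tested them: Rab20, Rab10, Rab32, Rab11a and Rab1b were higher, and Rab8b, Rab19 and Rab7b lower.

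**Figure D1:**
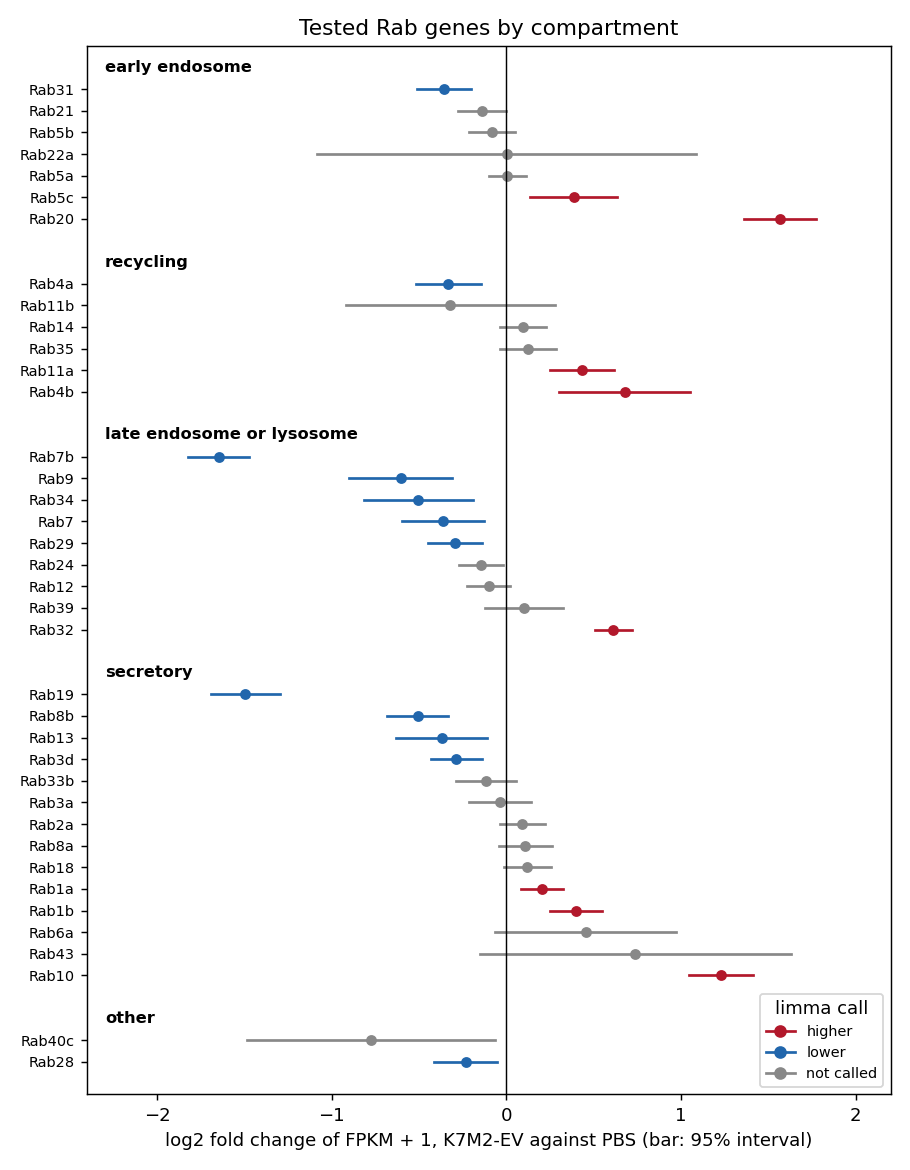
Log2 fold change of FPKM + 1 (x axis, K7M2-EV against PBS) for the 38 tested Rab genes, grouped by compartment, with bars for the 95% interval and colour for the limma call. Late endosome or lysosome members lie mostly left of 0 (5 called lower and 1 higher of 9 tested). Of all genes tested, 35.6% were lower and 18.4% higher. The widest bars belong to Rab22a, Rab43, Rab40c, Rab11b and Rab6a.

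Depth was inferred from the spacing of low values, which implied 21435200 to 25610000 reads per library. For a 2 kb gene, 1 FPKM thus stood for 42.9 to 51.2 reads. All 9 macrophage markers checked were expressed, and 7 were higher and 1 lower with vesicles. Csf1r, the M-CSF receptor gene, had 179 ± 19.2 and 229.6 ± 17.1 FPKM, Adgre1 (F4/80) 170.3 and 1824 FPKM, and Lyz2 (lysozyme) 3746 and 10862 FPKM. Cd68, a lysosomal glycoprotein gene, went from 411 to 202 FPKM. Markers of other cells were present too. Summed over 12 mesenchymal genes, replicate 2 reached 389 FPKM in the PBS group and 671 FPKM in the vesicle group. The other libraries had 160.5 to 171 FPKM (PBS) and 241 to 248 FPKM (vesicles). Col1a1 was the most abundant of the 12 in every library. Summed over 9 neutrophil genes, PBS libraries held 3.17 to 5.64 FPKM and vesicle libraries 39.7 to 44.3 FPKM, most of it S100a8. Camp, a granule peptide gene, had 0.0514 to 0.309 FPKM in PBS and 1.26 to 3.27 FPKM in vesicle libraries, and was tested only through the latter. S100a9 reached 1.29 FPKM with overlapping groups, and 6 of the 9 stayed under 1 FPKM, with Mpo and Ly6g at most 0.107 FPKM. The 3 lymphocyte genes with values summed to at most 0.126 FPKM. The part of these other transcripts in the Rab values was not tested.

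The early endosome group of 7, all tested, had 2 higher, 1 lower and 4 not called, with a median log2 fold change of 0.0022. Over all genes tested, 18.4% were higher and 35.6% lower. Rab20, which acts in the maturation of phagosomes and macropinosomes, lies on chromosome 8 at 11453518 to 11478710 (minus strand). Its level was 5.33, 5.25 and 4.19 FPKM in PBS libraries 1 to 3 and 16.0, 16.5 and 16.9 FPKM in the vesicle libraries. Every vesicle library was above every PBS library, with a log2 fold change of 1.57 ± 0.086 (SE, adjusted p = 2.64e-05). The non-coding gene E230013L22Rik on the opposite strand overlaps its exons and was at no more than 0.671 FPKM.

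Rab5c, one of a trio of near copies that fuse early endosomes, rose by less. It was at 47.5, 44.6 and 46.8 FPKM in the PBS libraries and 71.3, 54.8 and 57.5 FPKM in the vesicle libraries (log2 fold change 0.39 ± 0.103 SE, adjusted p = 0.0194). The groups did not overlap, but vesicle replicate 1 stood above the other vesicle libraries. The call was missed without PBS replicate 2 (adjusted p = 0.0577) or 3 (0.0558), without replicate 3 of both groups (0.103) and with quantile normalization (0.0506). Its copies were near level: Rab5a was at 26.0 ± 0.285 and 26.1 ± 0.251 FPKM (SD, n = 3 per group), and the 95% interval of its log2 fold change ran from -0.10 to 0.11. For Rab5b that interval ran from -0.21 to 0.05. After median-of-ratios scaling Rab5a was called higher (log2 fold change 0.15, adjusted p = 0.0294).

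Rab31, a trans-Golgi to endosome Rab also found on phagosomes, was the most abundant member of this group. It fell from 81.8, 79.1 and 89.6 FPKM to 66.9, 64.7 and 63.2 FPKM (log2 fold change -0.36 ± 0.065 SE, adjusted p = 0.00398), and the call was missed only without replicate 3 of both groups (adjusted p = 0.0655). Its relative Rab22a, a Rab of early endosome sorting, had the widest interval of the tested members. PBS replicate 2 was at 1.21 FPKM while PBS replicates 1 and 3 were at 6.09 and 6.13 FPKM, and the vesicle libraries were at 4.02, 4.02 and 3.47 FPKM. About 187 inferred reads lay behind the low value, against 964 and 1132 in the other PBS libraries. Without PBS replicate 2, Rab22a was lower with vesicles (log2 fold change -0.56, adjusted p = 0.00264), whereas with it the value was 0.00. Rab21, a Rab of integrin traffic, was at 21.2 ± 1.04 and 19.1 ± 0.667 FPKM (adjusted p = 0.0772) and passed the threshold only with quantile normalization (0.0434).

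Of the 8 recycling genes 6 were tested. The calls were 2 higher and 1 lower, and 3 gave none, against 18.4% higher and 35.6% lower over all genes. The median log2 fold change was 0.11. Rab11a, which returns cargo through the perinuclear recycling endosome, rose from 10.6, 12.8 and 11.98 FPKM to 17.0, 16.0 and 15.7 FPKM (log2 fold change 0.43 ± 0.076 SE, adjusted p = 0.00338). The groups did not overlap. Exons of the gene Gm47308 overlap those of Rab11a on the same strand, and that row went from 0.388 to 60.7 FPKM without following the groups: it was above 39 FPKM in PBS replicates 1 and 3 and vesicle replicate 2, and below 1 FPKM in the other 3. How the authors' counting divided reads between them was not tested. The near copy Rab11b had 6.10, 3.67 and 3.25 FPKM in PBS libraries and 2.58, 4.54 and 2.64 FPKM in vesicle libraries, with overlapping groups (adjusted p = 0.311).

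Rab4a and Rab4b, which serve fast recycling from early endosomes, went in opposite directions. Rab4a fell from 2.02, 2.41 and 2.30 FPKM to 1.51, 1.74 and 1.48 FPKM (log2 fold change -0.33 ± 0.077 SE, adjusted p = 0.0110). Rab4b, on chromosome 7 at 27168424 to 27178896 (minus strand), rose from 5.01, 5.62 and 5.11 FPKM to 10.7, 9.89 and 6.77 FPKM (0.68 ± 0.155 SE, adjusted p = 0.0105). In neither gene did the groups overlap, although vesicle replicate 3 was well below the other vesicle libraries in Rab4b. In that library the overlapping same-strand gene Gm21983 was at 3.71 FPKM, against 0 to 0.194 FPKM in the other 5, and its part in the Rab4b value was not tested. The Rab4b call was missed without replicate 1 (adjusted p = 0.0925) or 2 (0.0518) of both groups. For Rab4a it was missed without replicate 3 of both groups (0.125) and with quantile normalization (0.191). Rab14, between Golgi and recycling endosomes, and Rab35, also of cytokinesis, were not called, with 95% intervals of -0.04 to 0.23 and -0.04 to 0.28 on the log2 scale. Both were called higher after median-of-ratios scaling (adjusted p = 0.0166 and 0.0133). Rab35 was the most abundant member of the group at 19.3, 21.7 and 21.8 FPKM in the PBS libraries and 23.7, 21.8 and 23.3 FPKM in the vesicle libraries, which overlap.

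In the late endosome or lysosome group 9 of 11 genes were tested, with 1 higher, 5 lower and 3 not called, and the median log2 fold change was -0.29. Of all genes tested, 18.4% were higher and 35.6% lower. Quantile normalization left 3 lower, as did median-of-ratios scaling, and under these settings 25.2% and 26.0% of all genes were lower. Rab7b, of traffic between late endosomes and the trans-Golgi, lies on chromosome 1 at 131688695 to 131715439 (plus strand). It was at 22.3, 19.5 and 21.7 FPKM in the PBS libraries and 6.54, 5.95 and 5.72 FPKM in the vesicle libraries. The groups were far apart, and this was the largest fall of the family on the log2 scale (-1.65 ± 0.072 SE, adjusted p = 1.11e-05).

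Rab7, the Rab of late endosome maturation and of fusion with lysosomes, fell by less, from 43.3, 40.0 and 37.0 FPKM to 27.3, 33.9 and 31.8 FPKM (log2 fold change -0.36 ± 0.097 SE, adjusted p = 0.0193). It was missed after median-of-ratios scaling (adjusted p = 0.107), without PBS replicate 1 (0.0597) and without replicate 1 (0.0917) or 3 (0.0746) of both groups. Rab9, which returns mannose 6-phosphate receptors from late endosomes to the Golgi, fell from 8.23, 7.62 and 6.65 FPKM to 4.65, 5.37 and 3.78 FPKM (-0.61 ± 0.122 SE, adjusted p = 0.00616). Its call was missed only without replicate 1 of both groups (adjusted p = 0.0654). Rab34 (2.39 ± 0.435 to 1.39 ± 0.310 FPKM), a Rab of lysosome positioning and cilia, and Rab29 (5.37 ± 0.310 to 4.20 ± 0.257 FPKM), which recruits the kinase LRRK2, also fell (adjusted p = 0.0167 and 0.00885). Both fell short of the threshold under some settings. Rab34 missed it with quantile normalization (adjusted p = 0.0813), without vesicle replicate 1 (0.0569) or 3 (0.0585) and without replicate 1 (0.0619) or 3 (0.124) of both groups. Rab29 missed it with median-of-ratios scaling (0.0679), with quantile normalization (0.0617) and without replicate 1 (0.0750) or 3 (0.0615) of both groups.

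Rab32 was the exception in this group. It serves lysosome-related organelles and rose from 11.3, 11.1 and 11.5 FPKM to 17.4, 17.97 and 18.02 FPKM, with a narrow spread in both groups and no overlap (log2 fold change 0.61 ± 0.044 SE, adjusted p = 7.41e-05). Rab24, Rab12 and Rab39 were not called. Rab12, which directs transferrin receptor to lysosomes, was at 11.3 ± 0.536 and 10.4 ± 0.153 FPKM, and the 95% interval of its log2 fold change was -0.22 to 0.02. Rab24, linked to autophagosomes, was just outside the threshold (4.69 ± 0.0717 and 4.14 ± 0.184 FPKM, adjusted p = 0.0541). Its exons overlap those of Prelid1 on the opposite strand, which was at 33.2 to 45.1 FPKM. Rab39, of phagosome acidification, had overlapping groups at 2.98 ± 0.206 and 3.27 ± 0.442 FPKM.

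The 25 secretory genes divided into 12 of the endoplasmic reticulum and Golgi and 13 of exocytosis, and 14 were tested. Of these 3 were higher, 4 lower and 7 without a call, against 18.4% higher and 35.6% lower over all genes. The median log2 fold change was 0.10. After median-of-ratios scaling 6 were higher and 3 lower, against 26.5% higher and 26.0% lower over all genes. Rab10, an exocytic Rab known for surface delivery of the endotoxin receptor TLR4, lies on chromosome 12 at 3247428 to 3309969 (minus strand). It rose from 46.9, 48.7 and 48.1 FPKM to 126, 106 and 110.1 FPKM, so that the lowest vesicle library was far above the highest PBS library (log2 fold change 1.23 ± 0.077 SE, adjusted p = 4.32e-05). By mean FPKM it was member 5 of the family with PBS and member 1 with vesicles. The opposite-strand gene Rab10os overlaps its exons and was at no more than 2.85 FPKM.

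Rab8b, an exocytic Rab of the trans-Golgi, moved the other way. It was the most abundant Rab by mean with PBS, at 96.7, 84.2 and 88.9 FPKM, and fell to 66.6, 62.1 and 59.97 FPKM (log2 fold change -0.51 ± 0.073 SE, adjusted p = 0.00146), which made it member 4. Rab8a, its near copy, had means of 13.8 ± 0.506 and 15.0 ± 0.999 FPKM with no call (95% interval -0.04 to 0.26). After median-of-ratios scaling Rab8a was called higher (adjusted p = 0.0253). Rab13, of traffic to cell junctions, and Rab3d, of regulated exocytosis, fell by 0.37 and 0.29 on the log2 scale (adjusted p = 0.0266 and 0.00815). The Rab13 call was missed in 9 of 16 alternative fits that tested it, including 5 of the 6 that left out a single library. Without vesicle replicate 2 it kept its call. Rab3d missed the threshold with quantile normalization (adjusted p = 0.415) and without replicate 1 (0.0722) or 3 (0.0865) of both groups. Rab3a was near 1 FPKM in every library.

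Among the Golgi members, Rab19 had the largest fall of the tested family by mean FPKM and the next to largest, after Rab7b, on the log2(FPKM + 1) scale. It lies on chromosome 6 at 39381175 to 39390380 (plus strand) and went from 5.63, 4.70 and 5.12 FPKM to 1.16, 1.32 and 1.05 FPKM without overlap (log2 fold change -1.50 ± 0.082 SE, adjusted p = 2.64e-05). The copies of Rab1, which carry cargo from the endoplasmic reticulum to the Golgi, rose together. Rab1b went from 78.0, 84.6 and 83.8 FPKM to 114, 104 and 108 FPKM (0.40 ± 0.062 SE, adjusted p = 0.00205). Rab1a went from 24.9, 25.9 and 25.9 FPKM to 30.8, 29.2 and 28.8 FPKM (0.21 ± 0.050 SE, adjusted p = 0.0136). Its call was missed without vesicle replicate 1 (adjusted p = 0.0547) and without replicate 1 (0.111) or 3 (0.0947) of both groups.

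Rab2a, Rab18 and Rab33b were not called, and their log2 fold changes lay between -0.12 and 0.12. Rab2a, of traffic between the endoplasmic reticulum and the Golgi, and Rab18, of the endoplasmic reticulum and lipid droplets, were called higher after median-of-ratios scaling (adjusted p = 0.00951 and 0.00564). Rab6a and Rab43, both of the Golgi, were variable. PBS replicate 2 was lowest for Rab6a at 9.01 FPKM and PBS replicate 3 for Rab43 at 2.29 FPKM, against 13.4 to 14.3 and 7.17 to 7.56 FPKM in the other PBS libraries. With vesicles they were at 12.8, 19.7 and 18.8 FPKM and at 11.0, 8.24 and 8.69 FPKM, overlapping the PBS group for Rab6a and not for Rab43 (adjusted p = 0.1202 and 0.137). Rab6a was called higher without vesicle replicate 1 (adjusted p = 0.0439) or replicate 1 of both groups (0.0450).

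The last 6 genes fit none of these compartments, and 2 were tested. Rab28, a cilium Rab, fell from 3.67, 3.90 and 3.83 FPKM to 2.87, 2.92 and 3.49 FPKM (log2 fold change -0.23 ± 0.074 SE, adjusted p = 0.0363). It was missed in 11 of 16 alternative fits. Rab40c, which carries a SOCS box, was at 4.80, 2.15 and 5.25 FPKM in the PBS libraries and 1.44, 2.68 and 1.53 FPKM in the vesicle libraries. Replicate 2 was out of line in both groups, the groups overlapped, and the gene was not called (adjusted p = 0.0647). Without PBS replicate 2 it was lower (log2 fold change -1.09, adjusted p = 0.00759), as it was without vesicle replicate 2 (-0.97, 0.0458).

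**Figure D2:**
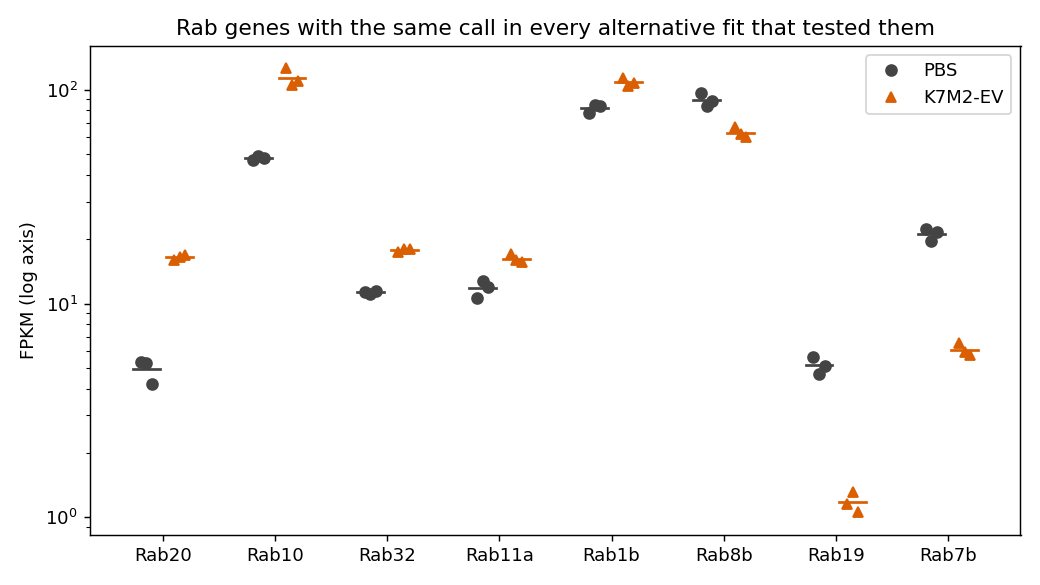
FPKM in each library (log axis) for the 8 Rab genes that kept their call in every alternative fit that tested them, with circles for PBS, triangles for K7M2-EV and lines for group means. In each gene the 3 vesicle libraries lie on the same side of the 3 PBS libraries, from 1.05 to 1.32 FPKM for Rab19 up to 106 to 126 FPKM for Rab10.

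The 19 genes below the filter had at most 1.08 FPKM in any library, and 7 stayed under 0.1 FPKM in all 6. Rab27a, which docks secretory granules and takes part in exosome release, was at 0.867, 0.673 and 0.823 FPKM in the PBS libraries and 0.282, 0.312 and 0.249 FPKM in the vesicle libraries, with no overlap. Its relative Rab27b was at no more than 0.0486 FPKM. Rab44, a large Rab of granule secretion, was at 0.141, 0.0726 and 0.0603 FPKM with PBS and listed at 0 in all 3 vesicle libraries. With no filter on low values Rab27a, Rab36 and Rab44 were called lower (adjusted p = 0.00290, 0.0455 and 0.0262), the PBS values of the last pair resting on few inferred reads, 16 for Rab44 and 20 for Rab36 in PBS replicate 1. Rab23, Rab36, Rab27a, Rab42 and Rab44 were the 5 of these genes whose vesicle libraries all lay under the PBS libraries, and in 0 of the 19 did they all lie above. Of all 13826 genes below the filter, 21.2% lay wholly under and 5.48% wholly above.

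Because FPKM is per length, members of a subfamily can be set side by side within a library. The Rab8 subfamily (Rab8a, Rab8b, Rab10 and Rab13) changed its composition most. Rab8b made up 60.3%, 56.4% and 57.8% of its summed FPKM with PBS and 31.7%, 33.7% and 32.0% with vesicles. Rab10 made up 29.2%, 32.7% and 31.3% and then 60.02%, 57.4% and 58.8%. Rab8b thus exceeded Rab10 in all 3 PBS libraries, and Rab10 exceeded Rab8b in all 3 vesicle libraries. Rab7b made up 34.0%, 32.8% and 36.9% of the Rab7 pair with PBS and 19.3%, 14.9% and 15.2% with vesicles. Rab4a made up 28.8%, 29.98% and 31.0% of the Rab4 pair and then 12.3%, 14.9% and 17.9%. Rab29 made up 33.0%, 31.8% and 30.2% of its sum with Rab32 and Rab38 and then 19.2%, 19.4% and 17.7%. Of 21 shares in 9 subfamilies, 17 did not overlap between the groups. Shares of a subfamily depend on each other, and those of a pair are mirror images, so the 17 are not separate results. Of all genes tested, 63.8% had FPKM values that did not overlap. With 3 libraries per group the exact two-sided permutation test cannot go below p = 0.1, which all 17 reached (adjusted p = 0.124 over the 21), so no share passed 0.05.

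**Figure D3:**
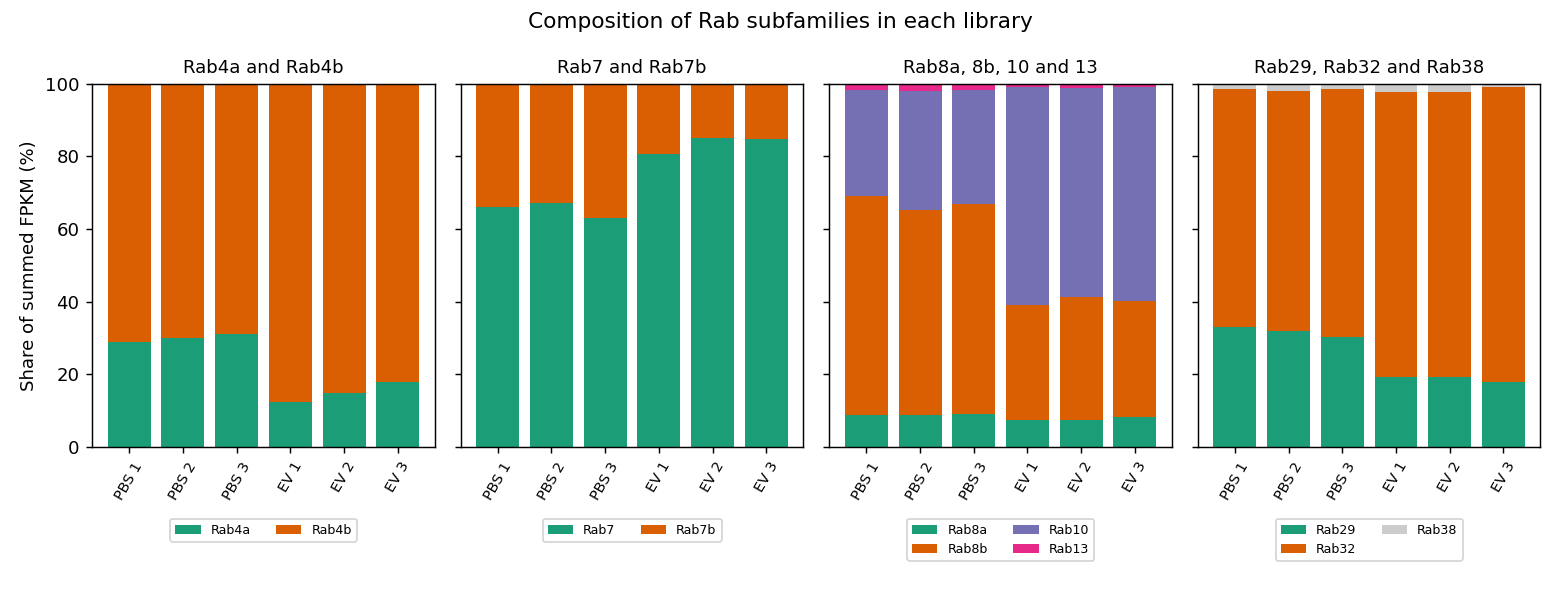
Share of summed FPKM (%, y axis) taken by each member of 4 Rab subfamilies in each PBS and K7M2-EV (EV) library. Rab10 goes from 29.2% to 32.7% of the Rab8 subfamily with PBS to 57.4% to 60.02% with vesicles, and Rab7b from at least 32.8% of the Rab7 pair to at most 19.3%.

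How the counting treated reads shared by near copies is not stated, so their likeness was measured. In the coding sequences of GENCODE M21 the copies Rab4a and Rab4b were 75.0% identical, with a longest shared run of 23 bases, and Rab8b and Rab10 72.7%, with 14. Over the subfamily pairs compared, the longest run was 38 bases, between Rab1a and Rab1b. The 60 bases around the longest run are shown for the pairs called in opposite directions that lead these results, with capitals for the bases that differ. In Rab4a and Rab4b (coding bases 421 to 480 and 406 to 465) the stretch codes for part of the nucleotide pocket that contacts the guanine base.
Rab4a: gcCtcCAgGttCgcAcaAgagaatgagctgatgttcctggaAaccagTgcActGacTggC
Rab4b: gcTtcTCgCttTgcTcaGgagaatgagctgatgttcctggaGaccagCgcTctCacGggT
For Rab8b and Rab10 (coding bases 154 to 213 and 157 to 216) it codes for the start of switch II, which changes shape between the GDP and GTP forms.
Rab8b: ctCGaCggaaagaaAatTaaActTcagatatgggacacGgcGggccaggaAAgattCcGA
Rab10: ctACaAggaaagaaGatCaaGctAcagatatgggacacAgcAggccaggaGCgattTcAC
The first pair differs at 13 of the 60 bases and the second at 14, and the windows were chosen where the copies are most alike.

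Summed over a compartment, the levels shifted as well. The late endosome or lysosome genes summed to 107 ± 4.97 FPKM in the PBS group and 83.4 ± 4.17 FPKM in the vesicle group (SD, n = 3 each). That is 13.3% to 14.5% of all Rab FPKM with PBS and 9.23% to 10.7% with vesicles. Within it the mean of Rab7b went from 21.2 to 6.07 FPKM and that of Rab7 from 40.1 to 31.0 FPKM. Rab32 went the other way, from 11.3 to 17.8 FPKM. The secretory genes summed to 379 ± 3.42 and 458 ± 18.8 FPKM, in which Rab10 and Rab1b were higher and Rab8b lower. Recycling genes summed to 57.9 ± 1.45 and 67.3 ± 3.44 FPKM, and early endosome genes to 214 ± 9.73 and 218 ± 11.4 FPKM, where the groups overlap. All Rab genes together summed to 768 ± 13.3 FPKM with PBS and 833 ± 29.5 FPKM with vesicles. As a share of all FPKM in a library the groups overlapped, at 0.132%, 0.140% and 0.156% with PBS and 0.154%, 0.146% and 0.143% with vesicles. A sum is led by its most abundant genes, so it does not describe the typical member.

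**Figure D4:**
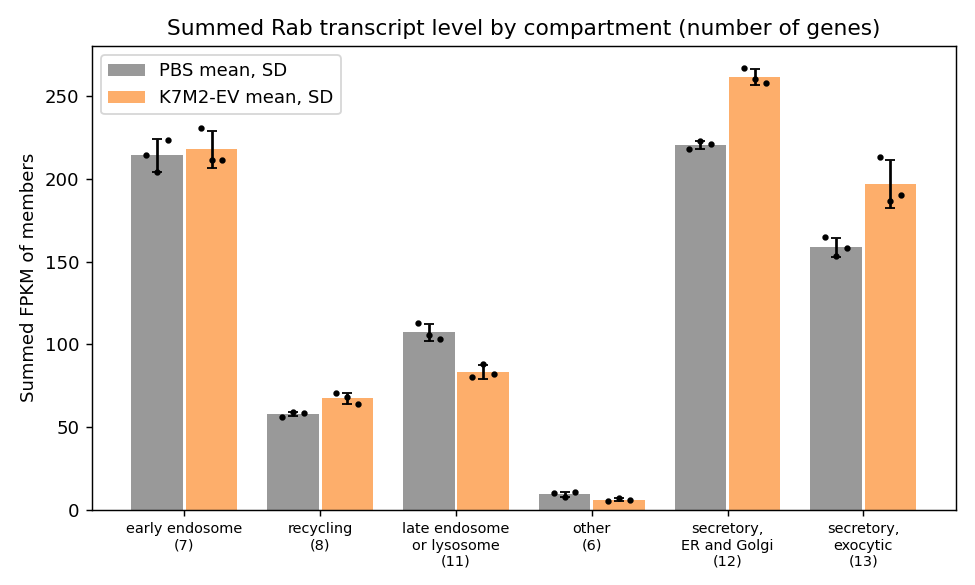
Summed FPKM of the Rab genes of each compartment (y axis), with bars for group means, error bars for SD (n = 3 per group) and points for libraries. The late endosome or lysosome sum is lower in all 3 vesicle libraries (at most 88.0 FPKM) than in the PBS libraries (at least 103 FPKM), and the early endosome sums overlap.

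Replicate 2 held the most mesenchymal transcripts in both groups. Of the 12 members that fell, Rab34, Rab4a and Rab13 were highest in replicate 2 of both groups. With replicate 2 of both groups left out their log2 fold changes were -0.51, -0.34 and -0.43 (adjusted p = 0.00828, 0.0284 and 0.00860). The mesenchymal sum of the remaining libraries was also higher with vesicles, led by Col1a1. That gene was at 65.4 and 74.3 FPKM in PBS replicates 1 and 3 and 131 and 128 FPKM in those vesicle replicates. Bgn and Col6a1 were lower with vesicles there. Of 9 mesenchymal genes tested, 0 were called in the main fit, while the replicate block called Col1a1, Col1a2, Col3a1, Sparc and Fbn1 higher and Bgn lower. The part of mesenchymal transcripts in these Rab values was not tested.

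Genes that control Rab proteins were counted in the same fit, from lists by function, and each count is to be read against the 18.4% of all genes called higher and 35.6% called lower, with a median log2 fold change of -0.12. Of 14 genes of prenylation, GDI and related membrane insertion, 5 were higher and 3 lower. Gdi2, which extracts inactive Rabs from membranes, rose from 18.3, 17.5 and 20.4 FPKM to 29.6, 27.4 and 28.0 FPKM (adjusted p = 0.000689). Yipf2, which encodes a Golgi membrane protein, fell from 1.58, 1.75 and 1.84 FPKM to 1.301, 1.203 and 1.124 FPKM (log2 fold change -0.30, adjusted p = 0.0113). Its call was missed with quantile normalization (adjusted p = 0.321) and without replicate 2 (0.0641) or 3 (0.133) of both groups. In this list the number higher went from 5 to 1 without PBS replicate 3 or vesicle replicate 1 or 3, and to 2 without PBS replicate 2 or vesicle replicate 2. In these fits, in the same order, 16.5%, 14.0%, 13.9%, 19.6% and 15.5% of all genes were higher.

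Of 30 exchange factor genes tested of 35, 4 were higher and 9 lower (median log2 fold change -0.08). The 9 include Dennd2c, tested only because its PBS values passed the filter, and leaving it out 8 of 29 were lower. Also among the 9 are Rab3gap1 and Rab3gap2, which are named for GTPase activation and were counted in this list alone. Under median-of-ratios scaling 9 were higher and 9 lower, against 26.5% higher and 26.0% lower over all genes. Dennd4c, whose protein activates Rab10, fell from 29.7, 25.0 and 27.5 FPKM to 7.81, 7.97 and 8.14 FPKM (-1.66 ± 0.070 SE, adjusted p = 9.54e-06), while its target gene rose. Rin2, an exchange factor for Rab5, fell from 56.1, 45.1 and 52.1 FPKM to 16.3, 17.2 and 16.3 FPKM (-1.56 ± 0.085 SE, adjusted p = 2.64e-05). Rab3il1, an exchange factor for Rab8, fell from 18.6 ± 1.27 to 8.35 ± 0.238 FPKM. The groups did not overlap in any of the 3.

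GTPase-activating protein genes gave 5 higher and 14 lower of 27 tested of 32 (median -0.24). The 14 include Tbc1d4 and Sgsm2, which passed the filter only through the PBS group, so their direction was fixed by it. Leaving them out, 12 of 25 were lower. These include Tbc1d2, which escaped the same exclusion only through vesicle replicate 3, at 1.00 FPKM. Tbc1d2, which acts on Rab7, fell from 8.72, 7.53 and 7.94 FPKM to 0.850, 0.964 and 1.00 FPKM, the largest change of these lists (-2.22 ± 0.071 SE, adjusted p = 4.26e-06). Tbc1d9 rose from 6.19 ± 1.07 to 15.6 ± 1.59 FPKM and Tbc1d13, which acts on Rab35, from 12.7 ± 0.454 to 24.5 ± 0.898 FPKM. The number lower was 9 without PBS replicate 3 and 6 without replicate 3 of both groups, where 26.9% and 18.4% of all genes were lower. With median-of-ratios scaling 11 were lower and with quantile normalization 10, where 26.0% and 25.2% of all genes were lower. Of 36 effector genes tested of 48, 10 were higher and 20 lower (median -0.22). Median-of-ratios scaling gave 12 effector genes higher and 14 lower, and quantile normalization 11 and 14. Mical1, an actin-oxidizing enzyme that binds several Rabs, fell from 10.3, 7.75 and 10.6 FPKM to 1.45, 1.53 and 1.46 FPKM (adjusted p = 2.72e-05). Rilpl2, which binds the phosphorylated forms of Rab8 and Rab10, rose from 9.88 ± 0.714 to 24.9 ± 2.00 FPKM, and Rufy1, an effector of Rab4 and Rab14, fell from 17.9 ± 0.262 to 10.1 ± 0.390 FPKM.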

How the data were processed

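RNA from 6 mouse macrophage libraries, 3 with PBS and 3 with K7M2 vesicles, was grouped by sample title. Values were deposited by the authors as FPKM, in a table of 26883 rows for each library; the headers do not name the unit, which was taken from the values. The submitters' processing notes name the build GRCm38 and, without saying what each did, edgeR, StringTie 1.3.4b, HISAT2 2.1.0 and CASAVA 1.8. For strand and annotation the settings are not given in the sources used here. Members that share exons with another gene (15 of the 38 tested) cannot be fully told apart from it. The 1 row lacking a value and 47 rows of repeated symbols were dropped. Gene positions and exon lengths came from GENCODE M21 (GRCm38), matched by symbol for 99.6% of genes, and promoters from RefSeq (GRCm38.p6).

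Reads per library were inferred from the step between low values. Of values worth at most 20 reads, 72.5% to 73.5% were whole within 0.1 read, where chance gives 20%.

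Testing used limma 3.58.1 on log2(FPKM + 1) for genes that reached 1 FPKM in 3 or more libraries (trend and robust settings, statmod 1.5.0, R 4.3.3), with p-values adjusted over all 13009 with Benjamini-Hochberg and called under 0.05. Fold changes on this scale understate the change of low genes. P-values measure the spread between these libraries. Tables and figures used Python 3.11.15, pandas 2.3.3, Biopython 1.88 and matplotlib 3.10.9. The fit was tested on simulated data.

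Deviations from the group mean were correlated across genes between libraries of the same number (0.317, 0.294 and 0.209). No label says that the numbers mark pairs, and the main fit and the permutation test of shares did not pair the libraries. Pairs by number were used only in the replicate block and in the fits that left out a replicate of both groups. Alternatives covered pseudocounts, filters, 2 scalings, the replicate block, other eBayes settings, compartments and left-out libraries. The named genes were the 3 most changed called members and the most abundant member of each compartment, opposite paralogs and the 3 most changed called genes of each partner list; the rest of the members are named to account for all. A partner gene that this rule names is not reported here. Members, compartments and lists were chosen with earlier results of these data known.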

Additional observations from a re-analysis of the deposited data

How the results depend on the processing

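Of 632 member values under 17 alternative fits, 555 kept direction and side of the threshold, 49 lost the call, 12 gained it with the same sign and 16 changed sign. Of the last, 2, both of Rab22a, also gained a call. With the replicate block the counts were 8 higher and 12 lower, and all 38 tested members had the same call. The cause of the changes below was not tested, except that a stricter filter tests fewer genes and a left-out library leaves fewer samples.

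Restricting the test to a mean of 5 FPKM or more gave 8 members higher and 5 lower. The lower counts were recycling 0, late endosome or lysosome 3, secretory 1 and other 0. In that fit 24 members kept the call of the main fit, and the others were not tested. Over all genes it tested, 27.4% were higher and 31.9% lower. Median-of-ratios scaling gave 14 higher (recycling 4, secretory 6), with late endosome or lysosome 3 and other 0 lower. It also gave 1 lower in the prenylation and GDI list and 9 higher exchange factors, and signs changed for Rab12 (0.033), Rab21 (0.0013), Rab3a (0.039) and Rab5b (0.059). Quantile normalization gave 7 lower (early endosome 2, recycling 0, late endosome or lysosome 3, secretory 2, other 0, prenylation and GDI 0) and 1 early endosome member higher. Signs changed for Rab33b (0.019), Rab3a (0.21) and Rab5a (-0.039). Over all genes tested, 26.5% were higher and 26.0% lower with median-of-ratios scaling, and 24.1% and 25.2% with quantile normalization. With no filter, other had 0 lower. Under the other compartment assignment the counts higher and lower were 1 and 0 for early endosome, 3 and 1 for recycling, 2 and 4 for late endosome or lysosome, 2 and 6 for secretory and 0 and 1 for other. Those counts are from the main fit, where 18.4% of all genes were higher and 35.6% lower.

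Without replicate 1 of both groups, 5 were lower (late endosome or lysosome 1, secretory 2, other 0), recycling had 1 higher, prenylation and GDI 1 higher, GTPase-activating proteins 8 lower, and Rab11b stood at 0.011. Without replicate 2 of both groups, early endosome had 2 lower, recycling 1 higher, prenylation and GDI 2 higher and 1 lower, Rab22a stood at -0.59 and Rab3a at 0.022. Without replicate 3 of both groups, 4 were lower (early endosome 0, recycling 0, late endosome or lysosome 2, secretory 2, other 0). Early endosome then had 1 higher, prenylation and GDI 1 higher and 0 lower, exchange factors 2 higher, GTPase-activating proteins 6 lower and effectors 11 lower. Without replicate 1, 2 or 3 of both groups, 23.7%, 28.6% and 18.4% of all genes tested were lower. The shares of all genes higher were 12.7%, 17.9% and 10.8%.

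Over all fits that left out libraries, members higher ranged from 6 to 8 and lower from 4 to 13, and prenylation and GDI genes higher from 1 to 3. The shares of all genes called in those fits ranged from 10.8% to 19.6% higher and from 18.4% to 33.5% lower. Early endosome had 1 higher without PBS replicate 2 or 3 and 2 lower without PBS replicate 2. Other had 0 lower without vesicle replicate 1 or PBS replicate 1 or 3, and GTPase-activating proteins 9 lower without PBS replicate 3. With a single library left out, Rab22a ranged from -0.56 (without PBS replicate 2) to 0.28 (without PBS replicate 3) and was -0.026 without vesicle replicate 1 or 2. Rab3a ranged from -0.073 to 0.019, positive without vesicle replicate 2. Rab5a ranged from -0.0030 (without PBS replicate 1) to 0.012, and was -0.0021 without vesicle replicate 2. The difference in subfamily share ranged from -1.10 to 1.61 points for Rab22a and from -1.61 to 1.10 points for Rab31. Depth limits the 19 genes under the filter, of which all but Rab23 and Rab30 had fewer than 100 inferred reads in every library.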
